A study of Mus musculus with 11 samples.

Results

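Zic1, Zic4, Ramp3, Prkcd, Rgs16, Tcf7l2, Lef1, Slc17a6, Synpo2 and Tnnt1 are 10 genes used as markers of the thalamus and of tissue that borders the hippocampus. All 10 were found by symbol among the 30681 genes of the deposited count table, and all 10 passed the filter on low counts with 16587 genes in all. The list was chosen by symbol with the cKO and WT levels of the same 11 libraries already known from earlier results, so the differences of these genes between the genotypes are given as a description and support nothing.

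The thalamus lies directly below the hippocampus and relays sensory and motor signals to the cortex. Its relay neurons load glutamate into vesicles with the transporter VGLUT2 (Slc17a6), while hippocampal pyramidal and granule cells mainly use VGLUT1 (Slc17a7). The thalamus and habenula keep a set of transcription factors from development, among them Tcf7l2 and Lef1, which bind DNA for the Wnt and beta-catenin pathway. None of the genes is limited to the thalamus: Zic1 and Zic4 are also used by septal neurons, cerebellar granule cells and the meninges, Tcf7l2 by maturing oligodendrocytes, and Lef1 by brain endothelium.

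The study set 6 libraries of conditional Dclk3 knockout mice (cKO) against 5 of wild-type mice (WT), all aged 6 months. Each library was made from polyadenylated RNA of 1 hippocampus, so fewer cells of a type and less RNA per cell cannot be told apart. The recombinase line, and so the cells in which Dclk3 was to be deleted, is not given in the sources used here, and the labels do not state separate animals, so errors describe the spread between these samples. Levels are in CPM, read counts relative to the scaled total of each library. Total counts were 24001828 to 35674490 per library, and Xist and Y-linked transcripts showed 6 male libraries in cKO, and 3 female and 2 male libraries (replicates 2 and 5) in WT. The targeted gene Dclk3 averaged 20.1 CPM in cKO and 22.4 CPM in WT, a log2 fold change of -0.15 ± 0.12 (SE; adjusted p = 0.727 by edgeR with Benjamini-Hochberg adjustment over all tested genes), so cKO names the label of a library, not a measured loss of Dclk3.

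The 4 marker genes with the lowest cKO values relative to WT were Ramp3, Zic1, Rgs16 and Prkcd, and their promoters are shown because these 4 differ most between the groups. The windows run from 250 bases before to 50 bases after the most upstream start that RefSeq lists (build GRCm38.p6, the same coordinates as mm10), 5′ to 3′ on the strand of the gene, and all 10 genes had an entry. Capitals mark matches on either strand to the TATA box TATAAA, the CCAAT box CCAAT, the half-site of the cAMP response element TGACG, the E-box CACGTG, and the TCF/LEF core as CTTTGA or CTTTGT.
Ramp3 (chr11:6658283-6658582, plus strand): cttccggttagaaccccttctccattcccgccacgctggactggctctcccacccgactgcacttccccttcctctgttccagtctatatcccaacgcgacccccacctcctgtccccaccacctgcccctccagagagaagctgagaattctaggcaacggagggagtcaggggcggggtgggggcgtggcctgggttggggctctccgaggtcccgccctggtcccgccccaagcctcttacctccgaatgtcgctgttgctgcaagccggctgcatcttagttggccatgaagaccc
Zic1 (chr9:91365719-91366018, minus strand): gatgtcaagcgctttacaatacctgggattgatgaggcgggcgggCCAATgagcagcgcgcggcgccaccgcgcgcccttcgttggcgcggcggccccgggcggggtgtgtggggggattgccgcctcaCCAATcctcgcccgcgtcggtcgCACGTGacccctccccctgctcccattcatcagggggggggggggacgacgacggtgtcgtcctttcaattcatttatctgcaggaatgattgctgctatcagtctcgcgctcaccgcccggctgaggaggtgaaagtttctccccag
Rgs16 (chr1:153740103-153740402, plus strand): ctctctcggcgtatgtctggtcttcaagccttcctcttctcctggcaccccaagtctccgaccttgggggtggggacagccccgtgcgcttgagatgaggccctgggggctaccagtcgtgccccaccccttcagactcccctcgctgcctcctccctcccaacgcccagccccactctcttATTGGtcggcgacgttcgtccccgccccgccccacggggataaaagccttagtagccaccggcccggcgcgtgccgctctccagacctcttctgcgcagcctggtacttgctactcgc
Prkcd (chr14:30626159-30626458, minus strand): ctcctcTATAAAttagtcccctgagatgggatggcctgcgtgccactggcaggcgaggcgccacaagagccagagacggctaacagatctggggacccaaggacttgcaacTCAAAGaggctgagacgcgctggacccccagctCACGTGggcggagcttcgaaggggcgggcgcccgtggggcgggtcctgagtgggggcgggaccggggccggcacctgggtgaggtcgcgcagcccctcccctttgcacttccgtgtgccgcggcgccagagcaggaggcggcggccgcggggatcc
No motif stood in all 4 windows, and the one of Ramp3 held none of the 5. Zic1 held 2 CCAAT boxes and 1 E-box, and Rgs16 held 1 CCAAT box on the opposite strand. Prkcd held a TATA match at the far end of the window, a TCF/LEF core on the opposite strand and an E-box. CACGTG stood in the windows of 2 of the 10 genes and in 7.24% of 27025 RefSeq promoter windows, and the CCAAT box in 3 of the 10 and in 38% of the windows. The TCF/LEF core stood in 2 of the 10 (Zic4 and Prkcd) and in 31.3% of the windows, and TATAAA and TGACG each in 3 of the 10, against 14.2% and 20.9% of the windows.

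All 10 genes were present at low to moderate levels in every library, the fewest reads being 36 (Tnnt1) and the most 1011 (Prkcd). Per kilobase of annotated exon the order over the 11 libraries was led by Prkcd, a calcium-independent protein kinase C of thalamic relay neurons, at 4.71 ± 0.79 CPM per kb (SD, n = 11). Ramp3 and Rgs16 followed at 2.52 ± 0.65 and 2.40 ± 0.42 CPM per kb and did not differ beyond their spread; Ramp3 was the lower of the pair in cKO (2.05 and 2.14) and the higher in WT (3.09 and 2.72). Slc17a6 at 1.63 ± 0.36 and Zic1 at 1.37 ± 0.25 CPM per kb also overlapped. Tnnt1 stood at 0.88 ± 0.38, Synpo2 at 0.66 ± 0.06, Lef1 at 0.49 ± 0.08, Tcf7l2 at 0.42 ± 0.07 and Zic4 at 0.21 ± 0.03 CPM per kb (SD, n = 11), with Lef1 and Tcf7l2 within each other's spread and Synpo2 within that of Tnnt1. The hippocampal transporter Slc17a7 had 275 ± 23.2 CPM per kb (SD, n = 11), 169 times the level of Slc17a6.

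The label was checked against 12 lists of tissue and cell type markers. Hippocampal genes were abundant: the 10 CA pyramidal genes summed to 1077 to 1172 CPM in cKO and 1036 to 1162 CPM in WT, and the 10 dentate granule genes to 516 to 636 CPM in cKO and 516 to 703 CPM in WT. The dentate genes had 8 lower and 2 higher cKO values and a median log2 fold change of -0.13; 2 were lower at an unadjusted p under 0.05, Pdyn (-0.51 ± 0.14) and Tdo2 (-0.55 ± 0.24, log2 ± SE), and none was called by edgeR or DESeq2. The CA genes had 4 lower and 6 higher values and a median of 0.06, with 1 higher at an unadjusted p under 0.05, Man1a (0.19 ± 0.06), and none called. The part of either list in the values of the 10 genes was not tested. Gbx2, a transcription factor that defines the developing thalamus, had no read in 2 libraries and at most 8 in any. Pou4f1, which defines the habenula, had no read in 4 libraries and at most 5. Other genes of these lists were measured in every library: of the thalamic list Lhx9 had 13.7 to 17.2 CPM in cKO and 14.3 to 16.9 CPM in WT, and Cacna1g 48.4 to 77.3 CPM in cKO and 55.8 to 76.9 CPM in WT. Of the habenula list Nwd2 had 24.6 to 31.8 CPM in cKO and 29.2 to 31.6 CPM in WT. The cholinergic basal forebrain genes summed to 0.57 to 1.16 CPM in cKO and 0.58 to 1.17 CPM in WT, with Lhx8 at no read in 10 of 11 libraries. Some thalamic genes of the lists, such as Rora in astrocytes and Calb2 in interneurons, are used by hippocampal cells as well, so thalamic names where a gene serves as a marker and not the source of its reads.

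Relative to its mean, Zic1 had the smallest WT spread of the 10, an SD of 4.79% of the mean. It encodes a zinc-finger transcription factor (ENSMUSG00000032368, chromosome 9, 91358058 to 91365810, minus strand, mm10). The cKO libraries ran from 5.69 over a median of 6.81 to 7.80 CPM, and WT replicates 1 to 5 had 8.98, 8.71, 9.12, 9.23 and 9.89 CPM. Every cKO library lay below every WT library, female and male alike. Mean levels were 6.68 ± 0.79 CPM in cKO (SD, n = 6) and 9.19 ± 0.44 CPM in WT (SD, n = 5). The cKO mean differed from the WT mean by -27.2%, and the fitted log2 fold change was -0.46 ± 0.09 (SE).

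Zic4 is the neighbour of Zic1, transcribed from the other strand (ENSMUSG00000036972, 91362413 to 91389348, plus strand), and the annotations share 60 exon bases. Its values were 1.69 to 2.47 CPM in cKO and 2.08 to 2.59 CPM in WT. The groups overlapped, with cKO replicates 2 and 5 among the WT values, and the log2 fold change was -0.22 ± 0.14 (SE). The family members Zic2 and Zic5 had log2 fold changes of -0.10 ± 0.08 and -0.12 ± 0.12 (SE), and neither was called by edgeR, at an unadjusted p under 0.05 or by DESeq2.

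The transcription factors Tcf7l2 and Lef1 overlapped between the groups. Tcf7l2 (ENSMUSG00000024985, chromosome 19, 55741820 to 55933654, plus strand) had 3.71 ± 0.57 CPM in cKO (SD, n = 6) and 3.70 ± 0.67 CPM in WT (SD, n = 5). Its fitted log2 fold change was 0.01 ± 0.14 (SE). Lef1 (ENSMUSG00000027985, chromosome 3, 131110471 to 131224356, plus strand) had 3.68 to 4.82 CPM in cKO, while WT replicates 4 and 5 stood highest at 5.84 and 5.12 CPM and the other WT libraries had 3.80 to 4.22 CPM. Its log2 fold change was -0.21 ± 0.12 (SE). Of the exon bases of Lef1 13.7% lie opposite the antisense gene Gm43352, and the use of strand in counting is not given in the sources used here. Of the 10 other TCF and Wnt target genes 9 were tested, 5 with lower and 4 with higher cKO values and a median log2 fold change of -0.06. edgeR called 0 of them, DESeq2 0, and 1 had an unadjusted p under 0.05 (Tnfrsf19, 0.12 ± 0.05). The Wnt feedback gene Axin2 stood at -0.12 ± 0.06 and beta-catenin, Ctnnb1, at 0.07 ± 0.04 (log2 ± SE).

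**Figure D1:**
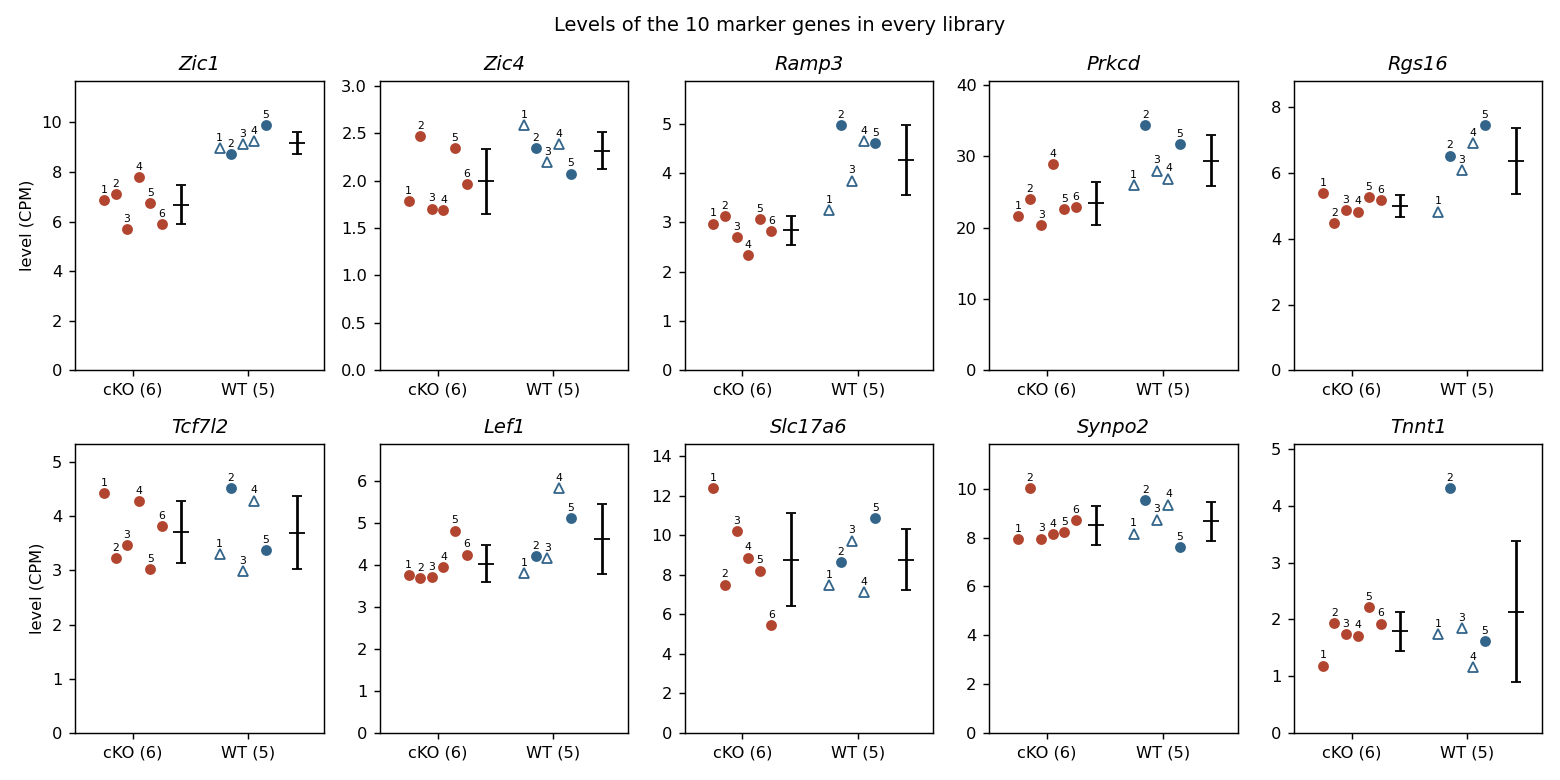
Level of each marker gene (vertical axis, CPM, from 0) in the 6 cKO and 5 WT libraries, numbered by replicate, where filled circles are male and open triangles female libraries and bars give the mean and SD. The cKO values of Zic1 (5.69 to 7.80 CPM) and Ramp3 (2.33 to 3.12 CPM) lie below all WT values, and Tnnt1 has a single high WT library at 4.32 CPM.

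Ramp3 had the lowest fitted ratio of the 10 genes. It encodes a small membrane protein that carries the calcitonin receptor-like receptor to the cell surface and shapes its response to adrenomedullin (ENSMUSG00000041046, chromosome 11, 6658521 to 6677475, plus strand). The cKO libraries ran from 2.33 over a median of 2.90 to 3.12 CPM, and WT replicates 1 to 5 had 3.24, 4.97, 3.84, 4.65 and 4.61 CPM. All cKO libraries lay below all WT libraries, with a narrow gap to WT replicate 1. Mean levels were 2.83 ± 0.29 CPM in cKO (SD, n = 6) and 4.26 ± 0.70 CPM in WT (SD, n = 5), and the log2 fold change was -0.59 ± 0.13 (SE). Of its exon bases 7.32% lie opposite the pseudogene Gm11978. Its partners had fold changes near 0: Ramp1 stood at 0.05 ± 0.06, Ramp2 at 0.01 ± 0.06 and the receptor Calcrl at 0.01 ± 0.08 (log2 ± SE), none called by edgeR or DESeq2, while Calcr was too low to test.

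Prkcd (ENSMUSG00000021948, chromosome 14, 30595354 to 30626210, minus strand) ran from 20.4 over a median of 22.7 to 28.98 CPM in cKO, and WT replicates 1 to 5 had 25.9, 34.4, 28.0, 26.9 and 31.8 CPM. The groups overlapped through cKO replicate 4, the highest cKO library, which stood above WT replicates 1, 3 and 4. The log2 fold change was -0.33 ± 0.09 (SE). The 8 other protein kinase C genes, some far more abundant (Prkce at 82.6 ± 3.92 CPM per kb, SD, n = 11), had log2 fold changes from -0.09 (Prkch) to 0.07 (Prkce). Neither edgeR nor DESeq2 called any of the 8, and 0 had an unadjusted p under 0.05.

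Rgs16, a GTPase-activating protein that shortens signals of G-protein-coupled receptors (ENSMUSG00000026475, chromosome 1, 153740349 to 153745468, plus strand), ran from 4.47 over a median of 5.03 to 5.38 CPM in cKO. WT replicates 1 to 5 had 4.83, 6.53, 6.10, 6.91 and 7.46 CPM. WT replicate 1, a female library, stood among the cKO libraries and the other 4 WT libraries above all of them. The log2 fold change was -0.35 ± 0.11 (SE), and 10.1% of the exon bases lie opposite the antisense gene Gm28513. Of the 6 other small RGS genes 5 were tested, and 3 of them had higher cKO values: Rgs4 (0.27 ± 0.14), Rgs2 (0.17 ± 0.07) and Rgs5 (0.11 ± 0.05, log2 ± SE). edgeR and DESeq2 called 0 of the 5, and Rgs2 and Rgs5 had an unadjusted p under 0.05.

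Slc17a6, the glutamate transporter of thalamic and subicular terminals (ENSMUSG00000030500, chromosome 7, 51622006 to 51671119, plus strand), varied most among the cKO libraries, from 5.46 CPM in replicate 6 to 12.4 CPM in replicate 1. WT ran from 7.15 to 10.9 CPM, inside the cKO range, and the log2 fold change was 0.00 ± 0.18 (SE). Slc17a7 stood at 0.09 ± 0.06 and Slc17a8 at -0.07 ± 0.13 (log2 ± SE), neither called by edgeR or DESeq2.

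Synpo2, an actin-binding protein also found in muscle (ENSMUSG00000050315, chromosome 3, 123076519 to 123236149, minus strand), had 8.50 ± 0.80 CPM in cKO (SD, n = 6) and 8.68 ± 0.80 CPM in WT (SD, n = 5). The groups overlapped, with the highest value in cKO replicate 2 (10.04 CPM), and the log2 fold change was -0.03 ± 0.09 (SE). Tnnt1, the slow muscle form of troponin T (ENSMUSG00000064179, chromosome 7, 4504570 to 4516382, minus strand), ran from 1.19 over a median of 1.83 to 2.22 CPM in cKO. WT replicates 1 to 5 had 1.75, 4.32, 1.85, 1.16 and 1.62 CPM. Apart from WT replicate 2 every library of both groups was between 1.16 and 2.22 CPM. The log2 fold change of -0.25 ± 0.28 (SE) turned to 0.16 without WT replicate 2. Of the 7 other troponin genes 5 were tested and none was called by edgeR or DESeq2 or had an unadjusted p under 0.05. They include Tnni1 (0.21 ± 0.15) and Tnnt2 (-0.20 ± 0.32, log2 ± SE). DESeq2 left Tnni2, Tnni3 and Tnnc1 without an adjusted p, so it could not call them.

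**Figure D2:**
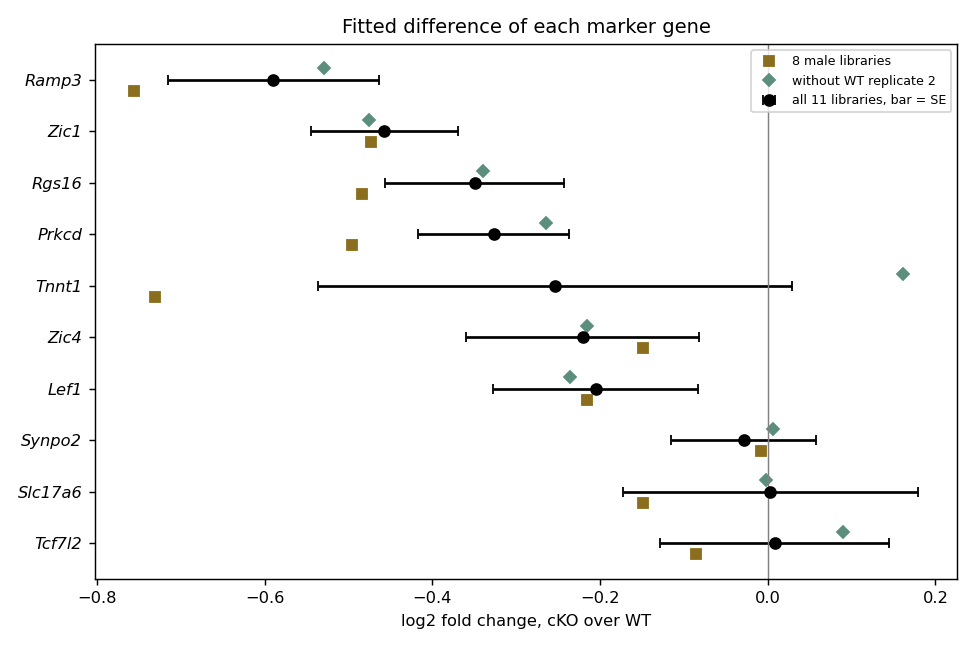
Fitted log2 fold change of each marker gene, cKO over WT (horizontal axis), with all 11 libraries (black circle, bar for 1 SE), in the 8 male libraries (brown square) and without WT replicate 2 (green diamond). Ramp3, Zic1, Rgs16 and Prkcd lie left of 0 under all 3, and Tnnt1 moves from -0.73 in the male libraries to 0.16 without WT replicate 2.

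As a group, 8 of the 10 genes had lower and 2 higher fitted values in cKO. The 2 were Tcf7l2 and Slc17a6, both near 0 and on either side of 0 under the alternative settings given below. The median log2 fold change was -0.24, against a median of -7.9e-05 over all 16587 tested genes, of which 50% were lower. edgeR called 0 of the 10 at an adjusted p under 0.05, as it did 0% of all tested genes. At an unadjusted p under 0.05 there were 4 lower (Zic1, Ramp3, Prkcd and Rgs16) and 0 higher genes, where 5.35% of all tested genes were lower and 3.84% higher. DESeq2 called Zic1 and Ramp3 lower, as it did 0.229% of the genes it gave an adjusted p. In 2 of the 10, Zic1 and Ramp3, every cKO library lay below every WT library, as in 0.512% of all tested genes, and in 0 above, as in 0.404%. The same 2 had a log2 fold change of -0.4 or below, as 2.62% of all tested genes had. Since these differences were known when the 10 genes were chosen, nothing is read from the counts.

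Sex and genotype were not balanced, so the 6 cKO libraries were also set against the 2 male WT libraries. There the log2 fold changes were -0.76 ± 0.15 (Ramp3), -0.50 ± 0.11 (Prkcd), -0.48 ± 0.12 (Rgs16), -0.47 ± 0.13 (Zic1) and -0.73 ± 0.30 (Tnnt1, log2 ± SE). The median of the 10 was -0.34, and edgeR called 0 genes over the whole table. Zic1, Ramp3, Prkcd and Rgs16 then had every cKO library below both WT libraries, 4 of the 10, where 3.86% of all genes tested in these 8 libraries did. The 2 male WT libraries are replicate 2, the highest library for Ramp3, Prkcd, Tcf7l2 and Tnnt1, and replicate 5, the highest for Zic1 and Rgs16. By mean centred level of the 10 genes they stood highest of the 11 libraries (0.32 and 0.16 on the log2 scale).

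WT replicate 2 was high for some of the thalamic genes. It was the highest of the 11 libraries for 4 of the 10 marker genes and for 4 of 15 other thalamic genes (Shox2, Rora, Slitrk6 and Vipr2), and for 6.54% of all tested genes. WT replicate 5 was highest for 2 of the 10, 3 of the 15 and 12.7% of all tested genes. For cKO replicate 1 these were 1 of the 10, 3 of the 15 and 9.78%. Shox2, a transcription factor of thalamic neurons, had 1.80 CPM from 53 reads in WT replicate 2, against 0.042 to 0.145 CPM in cKO and 0.125 to 0.477 CPM in the other WT libraries. Vipr2, a receptor for vasoactive intestinal peptide, had 1.53 CPM there, against 0.46 to 0.87 CPM in cKO and 0.59 to 1.07 CPM in the other WT libraries. Calb2, which marks midline thalamus and also hippocampal interneurons, had 23.2 CPM there, the lowest WT value, so not all thalamic genes were high in that library. Without WT replicate 2 the log2 fold changes were -0.53 (Ramp3), -0.48 (Zic1), -0.34 (Rgs16) and -0.26 (Prkcd).

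**Figure D3:**
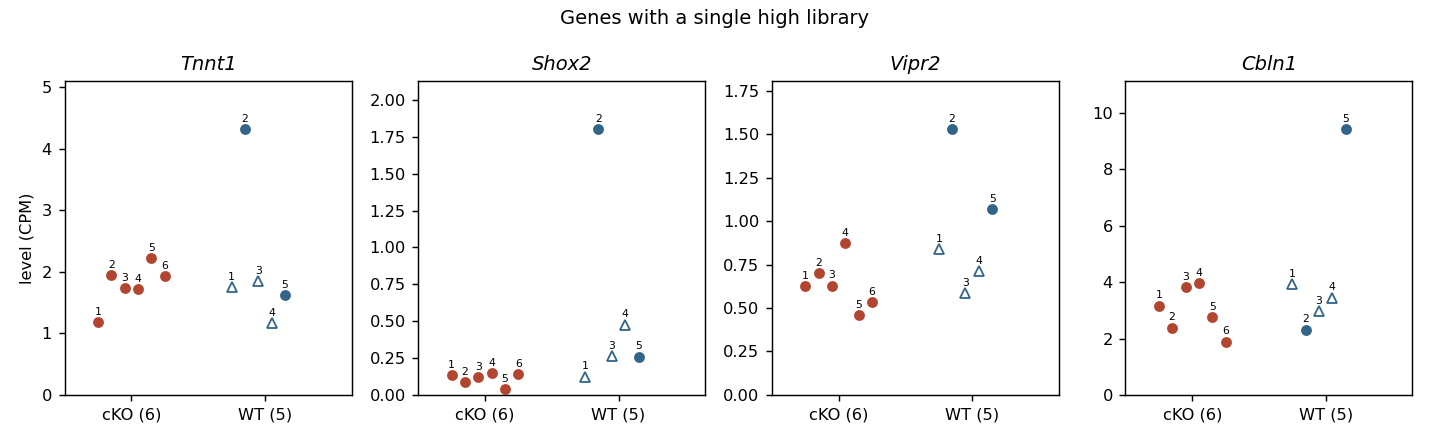
Levels (vertical axis, CPM, from 0) of Tnnt1 and of the thalamic genes Shox2, Vipr2 and Cbln1 in the 6 cKO and 5 WT libraries, numbered by replicate, with male libraries as filled circles and female ones as open triangles. Tnnt1, Shox2 and Vipr2 are highest in WT replicate 2 (4.32, 1.80 and 1.53 CPM), and Cbln1 in WT replicate 5 (9.44 CPM).

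The other thalamic genes were split between the directions. Of 15 genes 13 were tested, 7 lower and 6 higher in cKO, with a median log2 fold change of -0.01. edgeR and DESeq2 called none, and 1 had an unadjusted p under 0.05, Vipr2 (-0.54 ± 0.25). DESeq2 left Vipr2, Slitrk6 and Foxp2 without an adjusted p, so it could not call them. Next in order of p came Amotl1 (0.08 ± 0.05), Cbln1 (-0.55 ± 0.35) and Plekhg1 (-0.11 ± 0.08, log2 ± SE). Of the 9 habenula genes 7 were tested, 2 lower and 5 higher with a median of 0.22, none of them called by edgeR or DESeq2 and 0 at an unadjusted p under 0.05. Average levels were below 1 CPM for 5 of the 9, among them the tested genes Gpr151, Chrnb3 and Chrna3. DESeq2 left these tested genes without an adjusted p, so it could not call them. The 4 habenula genes of smallest p were Htr5b (0.27 ± 0.14), Lrrc55 (0.22 ± 0.14), Gpr151 (0.44 ± 0.29) and Nwd2 (-0.08 ± 0.06, log2 ± SE).

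**Figure D4:**
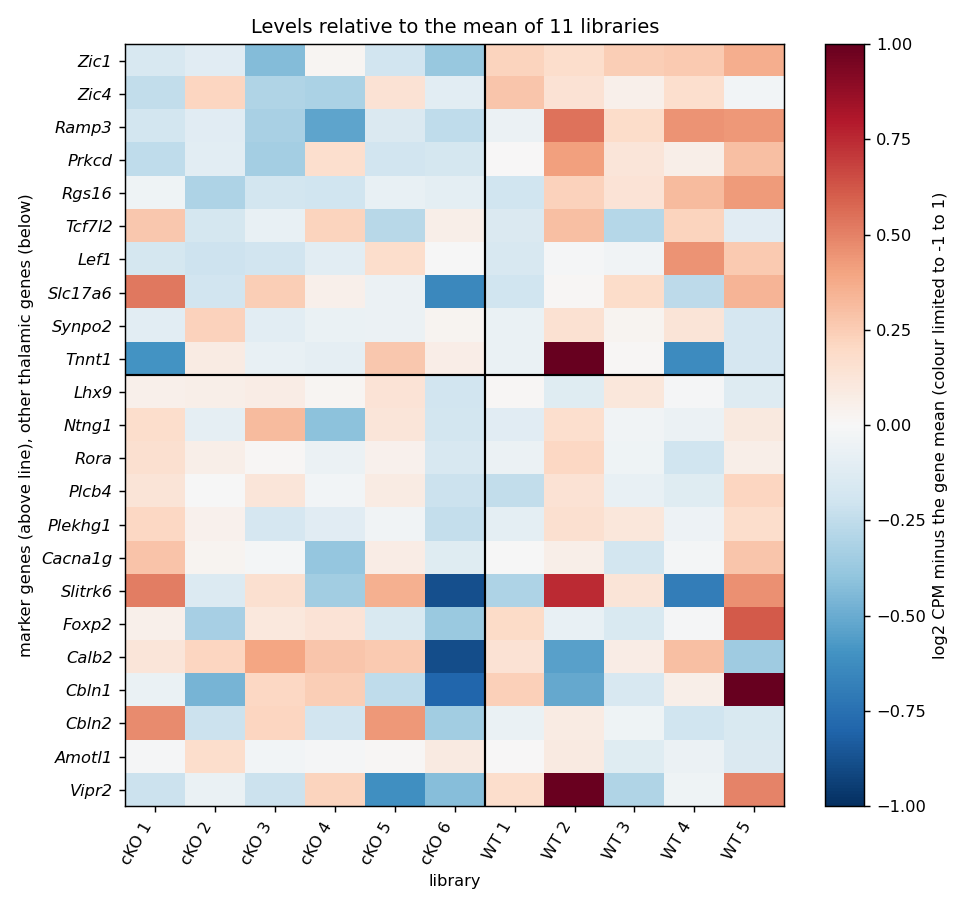
Log2 CPM of the 10 marker genes (above the horizontal line) and 13 other thalamic genes (below it) in each library, minus the mean of the gene over the 11 libraries, with colours limited to -1 to 1; cKO libraries are left of the vertical line and WT libraries right of it. The cKO side is mostly below the mean for Zic1, Ramp3, Prkcd and Rgs16, and single libraries (WT 2, WT 5, cKO 6) mark Tnnt1, Vipr2, Cbln1 and Calb2.

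Markers of other tissues were read beside these values. The 12 meningeal fibroblast genes, which matter for Zic1 and Zic4, had 10 lower and 2 higher cKO values with a median log2 fold change of -0.56, and 6 were lower at an unadjusted p under 0.05. edgeR called 0 and DESeq2 called 4: Slc13a4 (-0.76 ± 0.16), Igf2 (-0.56 ± 0.12), Aldh1a2 (-0.93 ± 0.21) and Slc6a13 (-0.62 ± 0.16, log2 ± SE). Their summed level was 109 to 199 CPM in cKO and 140 to 207 CPM in WT, and none was at 0. WT replicate 2 was the lowest WT library for 9 of the 12, and its level lay within the cKO range for 8 and below every cKO library for 4, among them Aldh1a2 (3.13 CPM there, 3.28 to 3.89 CPM in cKO). Igf2, Ogn and Foxc1 stood there above 5 of the 6 cKO libraries. Zic1 had 8.71 CPM in that library, its lowest WT value and above every cKO library. This is 1 library, and the part of meningeal cells in the Zic1 values was not tested. By mean centred level the meningeal genes were highest in the 3 female WT libraries (0.30 to 0.51 on the log2 scale), next in WT replicate 5 (0.24), and at -0.40 to 0.01 in cKO.

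Of the 10 pericyte and smooth muscle genes, which bear on Synpo2, 8 were lower and 2 higher with a median of -0.12, and they summed to 279 to 303 CPM in cKO and 263 to 315 CPM in WT. None was called by edgeR or DESeq2. At an unadjusted p under 0.05 there were 3 lower, Myh11 (-0.26 ± 0.10), Pdgfrb (-0.11 ± 0.05) and Acta2 (-0.35 ± 0.16), and 1 higher, Rgs5 (log2 ± SE). The 10 endothelial genes had a median of 0.01 and summed to 310 to 357 CPM in cKO and 300 to 370 CPM in WT, and the 10 oligodendrocyte genes a median of -0.03 and sums of 3931 to 5437 CPM in cKO and 4213 to 4990 CPM in WT. Neither list had a gene at an unadjusted p under 0.05 or called by DESeq2. The part of any of these cell types in the values of the 10 genes was not tested.

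Markers of other bordering tissue had their highest sums in different libraries. The choroid plexus genes summed to 82.4 to 254 CPM in cKO and 91.5 to 160 CPM in WT, highest in cKO replicate 5. In that library Ttr had 210 CPM. Of the 10 genes 8 were lower and 2 higher in cKO with a median log2 fold change of -0.10, and 5 averaged below 1 CPM. At an unadjusted p under 0.05 there was 1 lower, Clic6 (-0.41 ± 0.16, log2 ± SE). The cortex and subiculum genes had 5 lower and 5 higher cKO values with a median of 0.01. They summed to 370 to 454 CPM in cKO and 374 to 477 CPM in WT, highest in WT replicate 5. There Cux2 had 44.1 CPM against 20.2 to 30.3 CPM in cKO and 21.4 to 28.2 CPM in the other WT libraries. Of the marker genes, Zic1 and Rgs16 were highest in WT replicate 5, and none in cKO replicate 5. By mean centred level the 10 marker genes stood at 0.16 in WT replicate 5, below only WT replicate 2 (0.32), and at -0.04 in cKO replicate 5. The part of these tissues in the values of the 10 genes was not tested. The 10 striatal genes had 6 lower and 4 higher cKO values, a median of -0.06, and summed to 198 to 238 CPM in cKO and 184 to 216 CPM in WT. edgeR called 0 of them, DESeq2 called 1 higher, Penk (0.53 ± 0.15), and 3 had an unadjusted p under 0.05: Penk and Drd1 (1.02 ± 0.32), higher in cKO, and Rgs9 (-0.14 ± 0.06, log2 ± SE), lower. Drd1 and Penk are also used by hippocampal neurons, and in both genes the cKO and WT values overlapped through cKO replicate 1.

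**Figure D5:**
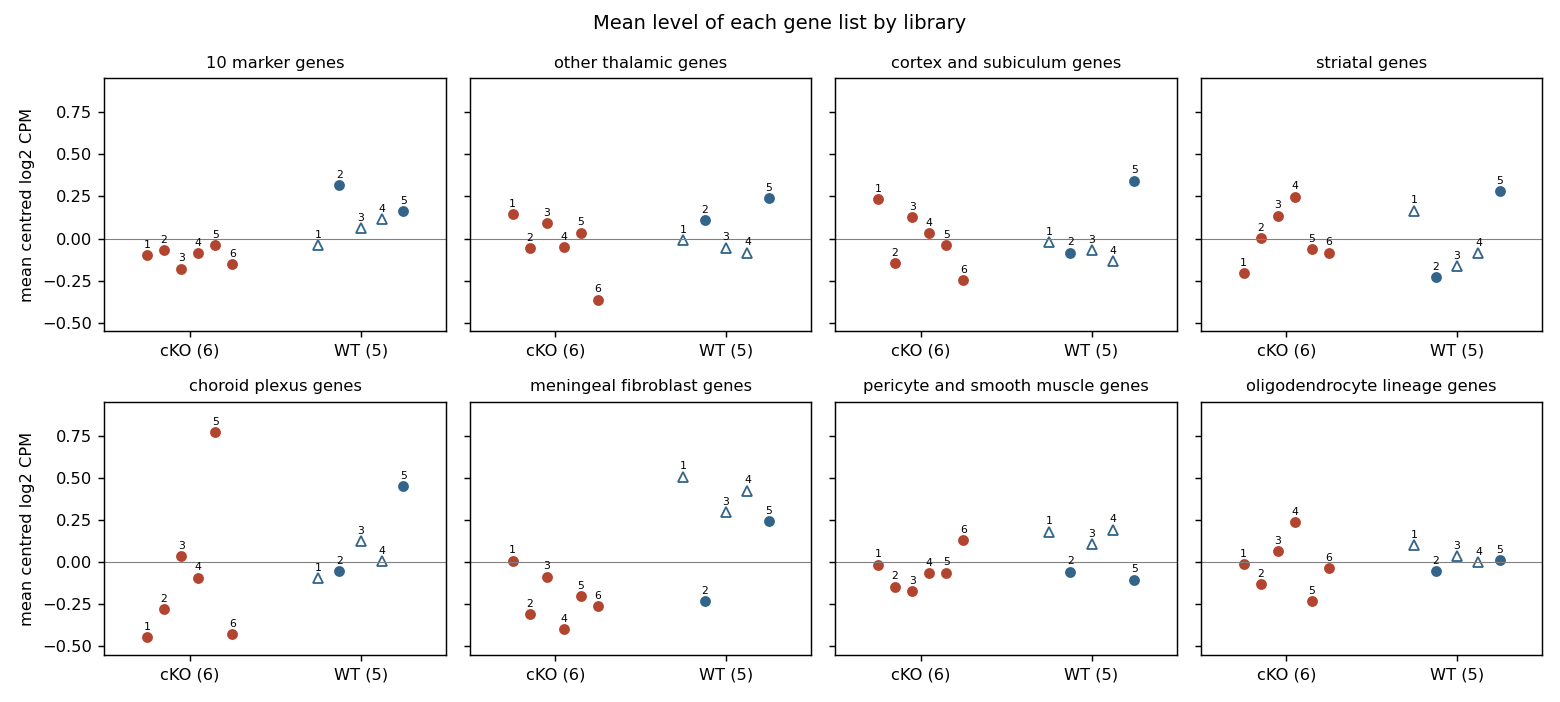
Mean over the tested genes of each list of the log2 CPM minus the mean of the gene over the 11 libraries (vertical axis), in the cKO and WT libraries numbered by replicate, with male libraries as filled circles and female ones as open triangles. The 10 marker genes reach 0.32 in WT replicate 2, where the meningeal genes are at -0.23 and the other thalamic genes at 0.11. The other thalamic genes are highest in WT replicate 5 (0.24) and cKO replicate 1 (0.14).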

How the data were processed

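The authors deposited raw counts, 1 whole number for each Ensembl gene in each library, which were used without change. Per the labels' protocols, polyadenylated RNA of 1 hippocampus per library went through a strand-marking (dUTP) preparation. The tool bcl2fastq 2.17.1.14 and the build mm10 are named in the submitters' processing notes; aligner, counter, annotation and strand setting: not given in the sources used here. Of 30681 genes 30566 matched a symbol; positions and exon lengths are from GENCODE M21 (mm10).

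Counts were filtered with filterByExpr, scaled by TMM factors and fitted with edgeR 4.0.16 (robust quasi-likelihood F test, genotype only, Benjamini-Hochberg adjustment over 16587 genes, threshold 0.05) in R 4.3.3. Each standard error is the fold change divided by the root of its F. DESeq2 1.42.0 was an alternative, and both were checked on simulated counts. DESeq2 gave an adjusted p to 14003 of the 16587 genes. Those left without one, such as Cnn1, Crabp2 and Gpr6 of the tissue lists, could not be called by it. No replicate pair was alike within sampling noise (smallest chi-square per degree of freedom 5.31). Xist and 4 Y-linked genes gave the sex of each library.

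The 10 genes and the lists were chosen with earlier results of these data known. Named genes are the 10, their families, and up to 4 genes of smallest p in a tissue list; Gbx2, Pou4f1, Lhx8, Lhx9, Shox2, Calb2, Rora, Slitrk6 and Cux2 were named after their values were seen. Not every gene that this rule takes is named, and some genes are not reported here. The other alternatives were RLE scaling, 2 filters, a replicate block, a sex term, the male libraries and each library left out.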

Additional observations from a re-analysis of the deposited data

Results flagged for a closer look

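Among the 10 marker genes and 15 other thalamic genes, each examined in both groups, 6 of 50 gene and group pairs had 1 library far from the others of its group; chance gives about 1 in 20. Tnnt1 had 4.32 CPM in WT replicate 2, above the 1.16 to 1.85 CPM of the other WT libraries, and Shox2 had 1.80 CPM in the same library, above 0.125 to 0.477 CPM. Synpo2 had 10.04 CPM in cKO replicate 2, above the 7.95 to 8.71 CPM of the other cKO libraries. Cbln1 had 9.44 CPM in WT replicate 5, above 2.31 to 3.93 CPM in the other WT libraries. In cKO replicate 6 Calb2 was low at 18.2 CPM, where the other cKO libraries had 36.8 to 44.6 CPM, and Lhx9 was low at 13.7 CPM, where they had 15.9 to 17.2 CPM.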

How the results depend on the processing

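The log2 fold changes of Zic1, Zic4, Ramp3, Prkcd, Rgs16 and Lef1 kept their direction under all 18 alternatives, with Zic1 from -0.51 to -0.41 and Ramp3 from -0.76 to -0.53. DESeq2 called 62 genes over the whole table, Zic1 (-0.45) and Ramp3 (-0.59) among them, and edgeR without a low-count filter called 3; leaving out 1 library gave 0 to 14 (1, 2 and 14 without WT replicates 1, 2 and 5), with none of the 10 genes among them. The median of the 10 was -0.35 with a sex term and -0.34 in the male libraries, and -0.30 to -0.19 with 1 library left out. The number of the 10 with every cKO library below every WT library was 4 in the male libraries, where 3.86% of all tested genes did so, and 2 to 3 with 1 library left out, where 0.612% to 1.52% did; 4 or 5 were lower at an unadjusted p under 0.05 under all 18, beside 3.58% to 7.15% of all tested genes. Tcf7l2 turned to -0.0017 with a replicate block, -0.087 with a sex term and -0.086 in the male libraries, and ran from -0.064 to 0.089 with 1 library left out. Slc17a6 turned to -0.15 with a sex term and -0.15 in the male libraries, and ran from -0.12 to 0.11. Synpo2 ran from -0.081 to 0.0064 and Tnnt1 from -0.41 to 0.16, both turning without WT replicate 2. The causes were not tested. The labels do not state that equal replicate numbers pair samples. The deviations of equal numbers correlated from -0.32 to 0.21 over 5 pairs, and 1 of the 5 numbers matched itself best. So few pairs cannot settle whether the numbers pair samples. With the replicate block edgeR called 0 genes and the median was -0.22. At 36 to 127 reads per library for Tnnt1 and 54 to 88 for Zic4, counting error limits what can be seen.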

Other observations

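The 10 marker genes were also compared with each other once the genotype means were taken out. Over the 45 pairs of genes the median Pearson r of log2 CPM centred within each group was 0.07 over the 11 libraries, 4 pairs were above 0.5 and 15 below 0. The points share library, depth and scaling, and the values are a description. No like value was computed for other genes, and counting error weakens r for genes with few reads. Whether the 10 genes vary on their own was therefore not tested. The closest pairs were Rgs16 with Lef1 (0.72), Ramp3 with Rgs16 (0.69), Zic4 with Synpo2 (0.58) and Zic1 with Prkcd (0.57). Zic1 and its neighbour Zic4 had an r of 0.02, and Zic4 and Slc17a6 were the most opposed at -0.54. Without WT replicate 2 the median was 0.06 and 5 pairs were above 0.5.

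Among 14311 genes with a mean of at least 1 CPM, the genes most like the mean of the 10 by the same measure included 1700086O06Rik (0.89), Ctu2 (0.85), Gm45629 (0.83), Mettl4 (0.83) and Prelid3a (0.83; Pearson r over 11 libraries). For single genes the highest were Dusp8 for Tcf7l2 (0.96), Gm47113 for Slc17a6 (0.95), Dnph1 for Synpo2 (0.93), Trmt12 for Rgs16 (0.92), Abca9 for Ramp3 (0.91), Mtmr6 for Tnnt1 (0.90), Zbtb43 for Zic4 (0.88), Hunk for Prkcd (0.89), Tmem8 for Zic1 (0.89) and Cdk20 for Lef1 (0.89). Each of these is the highest r of a search over 14311 genes and 11 libraries, so unrelated genes can reach such values. None of the 2 genes most like each marker gene was another of the 10, nor did any of them belong to the thalamic list. With only 2 genes taken from so many, nothing is read from this.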
